A study of Mus musculus with 6 samples.

Results

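The expression of 8 non-integrin adhesion genes was followed in leukemia cells with and without Etv5: Epcam, Cd44, Pecam1, Cdh1, Selplg, Icam1, Vcam1 and Cd24a. They were selected by gene symbol in the platform's probe annotation, with the probe set of highest mean over the 6 arrays standing for each gene. All 8 were measured, out of 19938 genes with a probe set of their own and 35556 probe sets in all. Because each of the 8 had exactly 1 probe set, the brightness rule chose nothing among them, but the genes were put together with earlier results of these arrays known. Their differences are therefore described gene by gene, and their number is not evidence about adhesion molecules as a class.

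The samples were mouse pre-B cells that BCR-ABL1 had transformed, a model of Ph+ acute lymphoblastic leukemia in which that fusion kinase drives growth. Of these, 3 were Etv5 knockout (ETV5 KO) and 3 Etv5 wild type (ETV5 WT). Both groups carry BCR-ABL1 and the strain label 129SvEv. The sources used here do not give the exons removed in the knockout, the way BCR-ABL1 was introduced, the age of the mice, or whether samples of a genotype are separate mice or cultures. The p-values therefore measure the spread among the samples at hand, and that spread may be technical. Etv5 encodes an ETS-family transcription factor, and the comparison of knockout with wild type asks which transcripts differ when it is missing.

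Adhesion molecules other than integrins hold leukocytes to each other, to vessel walls and to the marrow matrix. EPCAM and the cadherin CDH1 bind their own kind on a neighbouring cell, CD44 binds the matrix sugar hyaluronan, and PSGL-1, encoded by Selplg, binds selectins. ICAM1 and VCAM1 are immunoglobulin-superfamily ligands of integrins, PECAM1 binds itself and carries inhibitory signalling motifs, and CD24 is a small GPI-anchored mucin-like protein that marks developing mouse B cells.

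Promoter sequence from RefSeq (GRCm38.p6) was at hand for 3 of the 8 genes, Epcam, Cd44 and Icam1, and the windows of the called genes Epcam and Cd44 are printed because these are the genes of largest difference among the 8 and ETV5 belongs to the ETS family. Each run is the 250 bases before the annotated start, 5′ to 3′ on the gene's strand. Capitals mark the ETS core GGAA (or TTCC, its form on the other strand) and the E-box CACCTG (or CAGGTG, likewise), which SNAI and ZEB factors bind.
Epcam, chr17:87635729-87635978, plus strand: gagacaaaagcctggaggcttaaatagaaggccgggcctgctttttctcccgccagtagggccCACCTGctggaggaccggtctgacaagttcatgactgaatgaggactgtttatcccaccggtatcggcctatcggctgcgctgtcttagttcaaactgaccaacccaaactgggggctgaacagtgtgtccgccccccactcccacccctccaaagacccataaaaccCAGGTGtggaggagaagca
Cd44, chr2:102901666-102901915, minus strand: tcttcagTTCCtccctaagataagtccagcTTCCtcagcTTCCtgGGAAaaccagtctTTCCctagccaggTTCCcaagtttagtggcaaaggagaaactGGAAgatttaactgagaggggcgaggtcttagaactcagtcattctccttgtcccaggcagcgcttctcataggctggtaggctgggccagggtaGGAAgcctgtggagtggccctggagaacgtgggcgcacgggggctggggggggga

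The windows of Epcam and Cd44 differed in both motifs. The Epcam window held no GGAA on either strand, as did 6.55% of 32851 promoter windows of this length. It held 2 E-boxes, beginning 187 and 19 bases before the start, and 2.06% of windows held 2 or more. The Cd44 window held 8 ETS cores and no E-box; 1.45% of windows held 8 or more cores. The Icam1 window (not printed) held 7 cores, a number reached by 3.82% of windows, and 1 E-box. A longer ETS form, CCGGAAGT, which contains the core, was in none of the 3 windows and in 2.88% of all. The NF-kB pattern of GGG and CC with any 5 bases between them, searched like the others on both strands, matched once in Cd44 and once in Icam1, did not match in Epcam, and matched in 45.8% of all windows. None of the matches in the Cd44 and Epcam windows overlapped a match of another motif. These are matches of letters in a short window, not binding sites.

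The arrays were alike in scale, and the markers of the labelled cell type were present. Array medians of log2 signal lay between 7.79 and 7.84, and arrays correlated at r = 0.995 to 0.996 within the knockout, 0.994 to 0.997 within the wild type and 0.991 to 0.994 across genotypes, over probe sets that are not independent replicates. Etv5 itself has a pair of probe sets in the platform's annotation, and these went opposite ways. Whether each lies at the Etv5 locus was not checked. By number, 10363901 falls between the probe sets of Cd24a (10362896) and Ccdc38 (10365792), both on chromosome 10. Probe set 10438626 falls between those of Bmpr1a (10418927, chromosome 14) and Glp1r (10443690, chromosome 17). Numbers of the genes named here follow the chromosomes, so 10363901 may not measure Etv5. Probe set 10438626 gave 8.97, 8.91 and 8.92 in the knockout samples and 9.30, 9.52 and 9.27 in the wild-type samples (log2 difference -0.43, limma adjusted p = 0.0467). Probe set 10363901 gave 11.67, 11.88 and 11.73 in the knockout samples and 11.48, 11.52 and 11.46 in the wild-type samples (0.28, adjusted p = 0.13). Where the probes lie relative to the deletion is not given, so neither checks the labels. As a rough guide to background, since probe sets differ in affinity, 1027 olfactory receptor genes had a median signal of 5.64 and a 95th percentile of 7.28. All 13 measured B cell precursor markers averaged above that percentile, with Igll1, a surrogate light chain of the pre-B cell receptor, at 14.25 in the knockout and 14.29 in the wild type.

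Of the 8 adhesion genes, Epcam fell in the knockout, Cd44 and Pecam1 rose, and 5 did not pass the test. A gene was called at an adjusted p under 0.05 in limma with Benjamini-Hochberg adjustment over all 35556 probe sets. By that rule 4.43% of the 19938 genes were called, 2.42% higher and 2.01% lower in the knockout. Each count of called genes in a list below is read beside these shares. The knockout and wild-type values did not overlap for 5 of the 8 (Epcam, Cd44, Pecam1, Icam1 and Cd24a), beside 20.5% of all genes. The middle 95% of all genes differed by between -0.35 and 0.39 log2 units, around a median of -0.0039. Epcam, Cd44 and Pecam1 lay outside that range and the other 5 inside it.

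**Figure D1:**
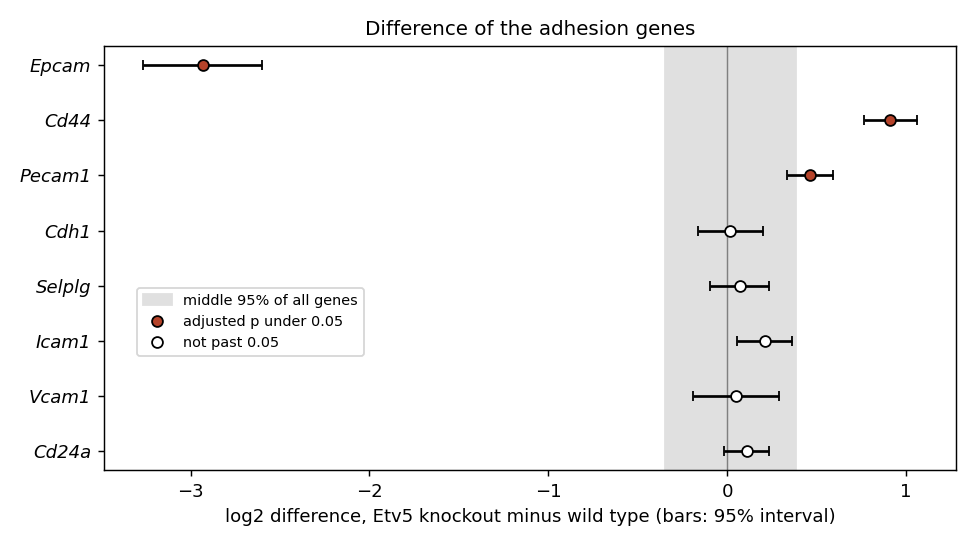
Log2 difference, Etv5 knockout minus wild type, of the 8 adhesion genes (points) with 95% intervals from limma (bars); the grey band is the middle 95% of all 19938 genes and filled points passed an adjusted p of 0.05. Epcam lies far to the left at -2.93, Cd44 (0.91) and Pecam1 (0.46) lie right of the band, and the other 5 points lie inside it.

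Epcam, the epithelial cell adhesion molecule, which also controls proliferation through its cleaved tail, had by far the largest difference of the 8. Its log2 signal was 7.21, 7.60 and 7.31 in the knockout samples and 10.48, 10.10 and 10.34 in the wild-type samples. All knockout samples were low and all wild-type samples high, and the gap between the groups was many times the spread within either. The means were 7.37 ± 0.21 in the knockout and 10.31 ± 0.19 in the wild type (SD, n = 3 each), a log2 difference of -2.93 (95% interval -3.27 to -2.60, limma adjusted p = 0.000313). On the linear scale the signal was 7.64-fold lower in the knockout, the 10th largest of 19938 gene differences by size. The knockout mean sat close to the 95th percentile of the olfactory receptor genes, with sample 1 below it, so background may set the signal measured in the knockout and thereby limit the fold.

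Most genes whose products work with EPCAM or cleave it did not pass. Of 19 measured EPCAM partners and cleaving proteases, 2 fell, none rose and 17 did not pass. Cd9, a tetraspanin found in complexes with EPCAM, had 7.69, 7.65 and 7.22 in the knockout samples, against 8.55, 8.54 and 8.36 in the wild-type samples. This fall of 1.95-fold (log2 difference -0.96, limma adjusted p = 0.0174) left the groups apart, with knockout sample 3 lowest. Spint2, a membrane-bound inhibitor of serine proteases, differed by -0.39 (adjusted p = 0.0497). Its call was lost in all 6 refits with a sample removed (adjusted p up to 0.20), and that of Cd9 without knockout sample 2, wild-type sample 1 or wild-type sample 2 (up to 0.0863). The proteases that cleave EPCAM were not called: Adam10 differed by 0.13 and Adam17 by 0.10 (adjusted p = 0.432 and 0.662), and Psenen, the gamma-secretase subunit with the brightest probe set of the list, had 13.45 in the knockout and 13.37 in the wild type. Cldn7, the claudin that binds EPCAM, was at 7.12 in the knockout and 7.15 in the wild type, below the olfactory percentile (Adam10, Adam17 and Cldn7 were named after their values were seen). The median difference of the list was -0.0059, beside -0.0039 for all genes.

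No epithelial marker passed the test beside Epcam. None of 20 epithelial markers was called by limma, 0 had an unadjusted p under 0.05, and 12 of them averaged no higher than the 95th percentile of the olfactory receptor genes. Their summed linear signal was 3225 to 3475 in the knockout arrays and 3330 to 3706 in the wild-type arrays, overlapping ranges. The difference was positive for 4 of the 20, their median was -0.06 beside -0.0039 for all genes, and the groups did not overlap in 4, beside 20.5% of all genes. Tjp3, the tight-junction gene with the brightest probe set of the list, had 9.01 in the knockout and 9.14 in the wild type (adjusted p = 0.523).

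Cdh1, E-cadherin, was dim in both genotypes and was not called. Its values were 7.04, 6.95 and 6.95 in the knockout samples and 7.01, 7.05 and 6.83 in the wild-type samples. The groups overlapped completely, and both means, 6.98 ± 0.050 in the knockout and 6.96 ± 0.12 in the wild type (SD, n = 3 each), lay below the olfactory 95th percentile. The difference was 0.02 with a 95% interval of -0.16 to 0.20 (limma adjusted p = 0.987), so a change of the size seen for Cd44 lies outside the interval, although a probe set near background would not show one.

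Around Cdh1, the superfamily and the cytoplasmic complex changed in a few members. Of 27 other cadherins, 1 rose and none fell. Fat4, a giant atypical cadherin, had 8.74, 8.86 and 8.73 in the knockout samples and 6.92, 7.25 and 6.96 in the wild-type samples. Every knockout sample lay above every wild-type sample, and the mean was 3.33-fold higher (log2 difference 1.73 ± 0.10, SE, limma adjusted p = 0.000599), while the wild-type values lay below the background guide. Celsr1, the list's brightest probe set, had 10.15 in the knockout and 10.01 in the wild type (adjusted p = 0.418). Of 15 catenins and linkers, 2 fell and none rose: Vcl, vinculin, by -0.38 and Ctnnd1, the p120-catenin that keeps cadherins at the membrane, by -0.36 (adjusted p = 0.0194 and 0.0321). Each kept its call in only 1 of the 6 refits with a sample removed, the one without knockout sample 2 (adjusted p up to 0.102 and 0.152). Ctnnb1, beta-catenin, had 12.89 in the knockout and 12.95 in the wild type. Among 12 transcription factors known to repress Cdh1, Zeb2 rose (log2 difference 0.57 ± 0.059, SE, adjusted p = 0.00527) and 11 did not pass; Tcf3, the brightest probe set there, differed by 0.18 (adjusted p = 0.232).

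Cd44, which encodes a hyaluronan receptor, rose. Its signal was 9.41, 9.53 and 9.48 in the knockout samples and 8.51, 8.54 and 8.64 in the wild-type samples. Every knockout sample was higher than every wild-type sample, and the lowest knockout value lay well above the highest wild-type one. The means were 9.47 ± 0.060 in the knockout and 8.56 ± 0.069 in the wild type (SD, n = 3 each), a 1.88-fold difference (log2 0.91, 95% interval 0.76 to 1.06, limma adjusted p = 0.00108). With 1 probe set, the standard form and the variant isoforms of CD44 could not be told apart.

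No gene that makes, degrades or binds hyaluronan was called higher beside Cd44. Of 16 measured, 1 fell, none rose and 15 did not pass. The gene that fell was Cemip2, a surface protein that breaks down hyaluronan, with means of 8.53 in the knockout and 9.12 in the wild type (log2 difference -0.58 ± 0.067, SE, adjusted p = 0.00773). Hmmr, another hyaluronan receptor and the brightest probe set of the list, gave 11.39 in the knockout and 11.36 in the wild type. The signal of 11 of the 16 did not exceed the olfactory percentile. Of 13 genes for CD44 splicing, shedding and links to the cytoskeleton, 1 rose and none fell. It was Ank3, ankyrin-G, an adaptor between membrane proteins and spectrin, with 9.06, 9.08 and 9.11 in the knockout samples and 7.08, 7.17 and 7.23 in the wild-type samples. The rise was 3.79-fold (adjusted p = 8.8e-05), and the 3 wild-type values lay below the background guide. Tra2b, a splicing factor with the brightest probe set of that list, differed by -0.04 (adjusted p = 0.915).

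**Figure D2:**
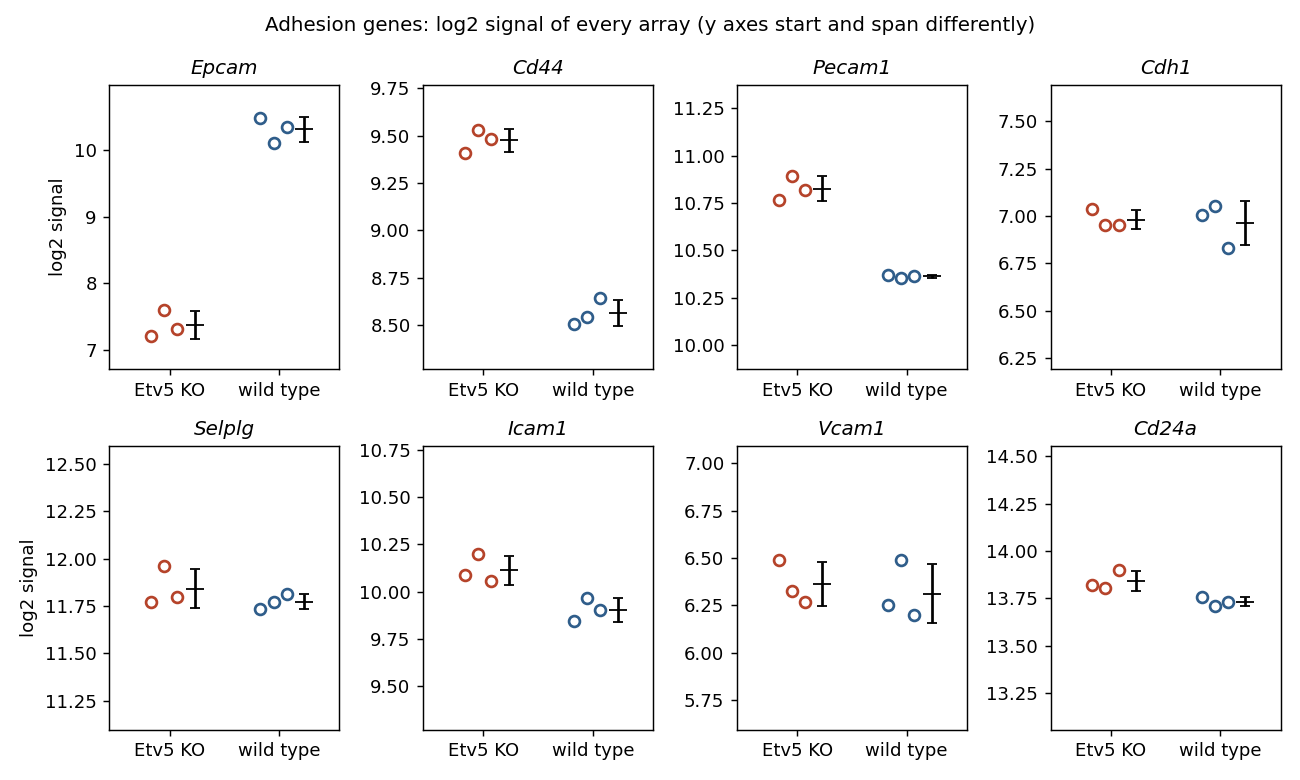
Log2 signal of each of the 8 adhesion genes in every array, Etv5 knockout (red) left of wild type (blue); horizontal ticks and bars are the mean and SD of 3 samples, and the y axes start at different values and span more for Epcam than for the rest. The groups lie far apart for Epcam, apart for Cd44 and Pecam1, narrowly apart for Icam1 and Cd24a, and overlap for Cdh1, Selplg and Vcam1.

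Pecam1, which encodes CD31, rose by a smaller amount. Its signal was 10.76, 10.89 and 10.82 in the knockout samples and 10.37, 10.35 and 10.37 in the wild-type samples. The groups did not overlap, and the SD was 0.066 in the knockout and 0.0080 in the wild type, whose values were nearly identical. The difference was 1.38-fold (log2 0.46, 95% interval 0.33 to 0.59, limma adjusted p = 0.00811). The call was lost without wild-type sample 1 (adjusted p = 0.0518). With the sample number as a replicate block the adjusted p was 0.0639, although the numbers were not shown to pair the samples.

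A few signalling genes behind PECAM1 were called higher. Of 10 measured PECAM1 partners and phosphatases that its inhibitory motifs recruit, 3 rose, none fell and 7 did not pass. The share called over all genes was 4.43%, and this list was assembled with earlier results known. Inppl1, the inositol phosphatase SHIP2, had means of 11.26 in the knockout and 10.45 in the wild type (log2 difference 0.81, limma adjusted p = 0.00121). Gab1, an adaptor of the phosphatase SHP-2, differed by 0.41 and Ptpn6, the phosphatase SHP-1, by 0.29 (adjusted p = 0.0252 and 0.0437). The call of Ptpn6 was lost in all 6 refits with a sample removed (adjusted p up to 0.197) and that of Gab1 in 5, all but the one without knockout sample 1 (up to 0.113). Inpp5d, the inositol phosphatase SHIP1, had the brightest probe set of the list and gave 13.12 in the knockout and 13.06 in the wild type.

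Pecam1 and Cd44 are also expressed by endothelial and myeloid cells, whose markers were read beside them. None of 16 endothelial markers was called by limma (2 had an unadjusted p under 0.05), and their summed linear signal was 10098 to 11065 in the knockout and 10697 to 11462 in the wild type. Eng, their brightest probe set, differed by -0.25 (limma adjusted p = 0.138). None of 15 stromal markers was called (0 at an unadjusted p under 0.05), with sums of 2383 to 2723 in the knockout and 2364 to 2722 in the wild type and Col1a1 at 8.81 in the knockout and 8.82 in the wild type. Of 14 myeloid markers 2 rose, beside 4.43% of all genes called in either direction. The sums of the 14 did not overlap: 2404 to 2797 in the knockout against 2313 to 2392 in the wild type. The 2 that rose were Ly6g (log2 difference 1.14, adjusted p = 0.0156), with a mean of 7.69 in the knockout and 6.55 in the wild type, and Itgam. The 14 included 9 that averaged no higher than the background guide, Ly6g among them, and the wild-type means of both Ly6g and Itgam lay below it, so the sizes of these differences are uncertain. Cd68, the brightest, differed by 0.34 (adjusted p = 0.278). Ly6g lost its call without knockout sample 2, knockout sample 3 or wild-type sample 1 (adjusted p up to 0.0694). RMA gives no signal of 0, so no marker could be called absent, and the part of the myeloid markers in the rise of Pecam1 and Cd44 was not tested. Fewer cells of a type and less RNA per cell cannot be told apart in such bulk samples.

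Of 13 T and NK cell markers, Zap70 rose by 0.33 (limma adjusted p = 0.047), a call lost in all 6 refits with a sample removed (adjusted p up to 0.183). The sums of that list ran the other way, 3189 to 3334 in the knockout and 3388 to 3447 in the wild type, with Lat, the brightest, differing by -0.20 (adjusted p = 0.234). Among the 13 B cell precursor markers, Ly6d and Pax5 rose (1.96 and 0.43) and Dntt and Vpreb2 fell (-0.37 and -0.32). The limma adjusted p of the 4 lay between 0.00387 and 0.045, and 4.43% of all genes were called. Pax5, Dntt and Vpreb2 lost the call without knockout sample 3 or either of wild-type samples 1 and 2, Dntt also without wild-type sample 3 and Vpreb2 in each of the 6 fits (adjusted p up to 0.197).

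**Figure D3:**
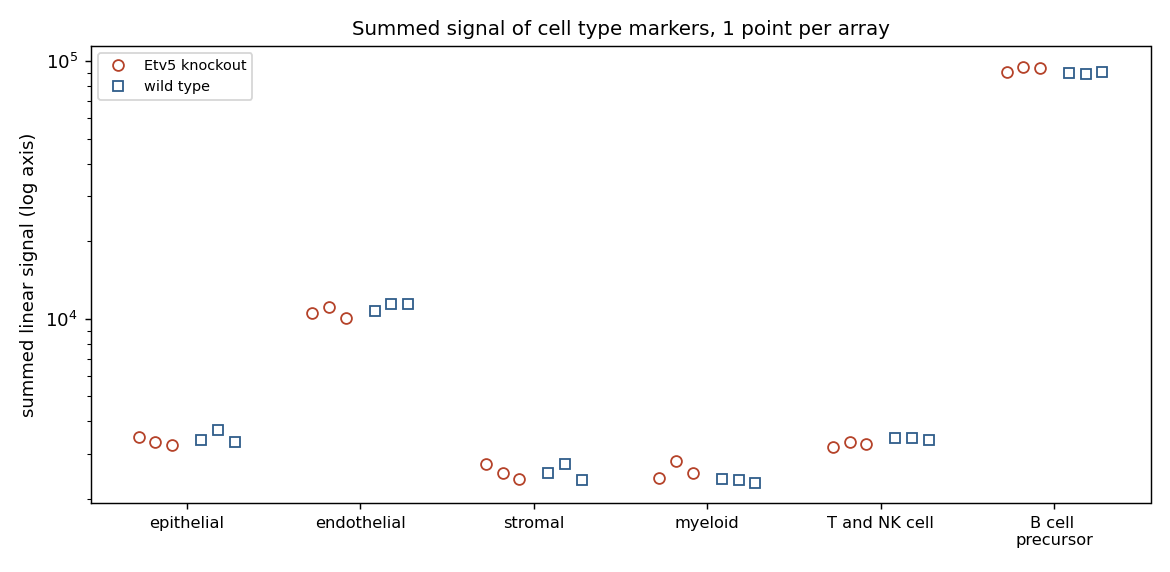
Summed linear signal of 6 lists of cell type markers (log y axis), 1 point per array, Etv5 knockout (red circles) left of wild type (blue squares); lists differ in length, so heights are compared only within a list. The genotypes overlap for epithelial, endothelial and stromal markers, and lie narrowly apart for myeloid, T and NK cell and B cell precursor markers.

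Icam1 and Vcam1, ligands of leukocyte integrins that inflammatory signals induce, were not called. Icam1 gave 10.09, 10.20 and 10.05 in the knockout samples and 9.84, 9.97 and 9.90 in the wild-type samples. All knockout samples lay above all wild-type samples by a small margin. The difference was 0.21 (95% interval 0.06 to 0.36, 1.16-fold), with an unadjusted limma p of 0.0153 and an adjusted p of 0.237. Vcam1 gave 6.49, 6.33 and 6.27 in the knockout samples and 6.25, 6.49 and 6.20 in the wild-type samples. These values overlapped and lay below the background guide (difference 0.05, 95% interval -0.19 to 0.29, adjusted p = 0.966).

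Among 9 integrin genes whose products bind ICAM1 or VCAM1, 1 rose, none fell and 8 did not pass. Itgam, the alpha chain of Mac-1, was 1.51-fold higher, with means of 7.83 in the knockout and 7.24 in the wild type (limma adjusted p = 0.0235). The wild-type mean lay below the background guide, so the size of this fold is uncertain. Its call was lost without knockout sample 1 or 2 or wild-type sample 1 or 3 (adjusted p up to 0.112). Itga4, the alpha chain of the VCAM1 receptor VLA-4 and the brightest of the 9, had 12.45 in the knockout and 12.68 in the wild type (adjusted p = 0.163). The groups did not overlap in 6 of the 9, beside 20.5% of all genes, and the median difference was -0.12, beside -0.0039 for all genes. The difference was positive for 3 of the 9. Their summed linear signal was 10617 to 10885 in the knockout and 11367 to 12021 in the wild type. Of 20 NF-kB components and targets, 3 rose and 1 fell, beside 4.43% of all genes called. The cytokine genes Lta and Tnf, whose products induce ICAM1 and VCAM1 on endothelium, rose by 0.97 and 0.49, and the apoptosis inhibitor Birc3 rose by 0.31 (adjusted p = 0.0029, 0.0193 and 0.0264). Tnfaip3, the NF-kB inhibitor A20, differed by -0.48 (adjusted p = 0.00541). Rel, the brightest, differed by 0.17 (adjusted p = 0.248). Tnf kept its call only without knockout sample 1 among the 6 refits with a sample removed (adjusted p up to 0.098) and Birc3 in none (up to 0.131). Of 35 other immunoglobulin-superfamily adhesion genes, Ncam2 fell by 0.85 on the log2 scale (adjusted p = 0.0222), with means of 6.18 in the knockout and 7.03 in the wild type that both lay below the background guide. It kept its call only without wild-type sample 2 among those fits (up to 0.0995). The other 34 did not pass, among them Cd47, the bright ligand of the phagocyte receptor SIRP-alpha (-0.19, adjusted p = 0.176).

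Selplg was bright in both genotypes and differed by less than the spread between samples. Its values were 11.77, 11.96 and 11.80 in the knockout samples and 11.73, 11.77 and 11.81 in the wild-type samples. The groups overlapped, with knockout sample 2 highest, and the 95% interval of the difference ran from -0.09 to 0.23 (limma adjusted p = 0.879). None of 11 selectins and sialomucins, Selplg included, was called, and 1 had an unadjusted p under 0.05; it was Ptprc, CD45, named after its values were seen, at 0.16 (adjusted p = 0.198). Cd164, the brightest of them, had 13.15 in the knockout and 13.13 in the wild type.

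The enzymes that decorate PSGL-1 and other selectin ligands changed in both directions. Of 20 measured, 2 rose, 2 fell and 16 did not pass, beside 4.43% of all genes called. The groups did not overlap in 10 of the 20, beside 20.5% of all genes. B4galt1, a galactosyltransferase, rose by 0.72 and Tpst1, a tyrosine sulfotransferase of the kind that PSGL-1 needs to bind P-selectin, by 0.44 (limma adjusted p = 0.00516 and 0.0073). Fut4, a fucosyltransferase that builds the selectin-binding sugar, differed by -0.44 and Chst2, a sulfotransferase of L-selectin ligands, by -0.80 (adjusted p = 0.011 and 0.0163). C1galt1, a galactosyltransferase that builds the O-glycan core, was the brightest, at 12.88 in the knockout and 12.93 in the wild type. Tpst1 lost its call without wild-type sample 1 (adjusted p = 0.0515), Fut4 without knockout sample 3 or wild-type sample 1 or 2 (up to 0.0658) and Chst2 without any 1 of the wild-type samples (up to 0.0731).

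Cd24a, a marker of B cell precursors, had a high signal in both genotypes, at 13.82, 13.80 and 13.90 in the knockout samples and 13.76, 13.71 and 13.73 in the wild-type samples. The groups did not overlap, but the difference was small (0.11, 95% interval -0.02 to 0.23, 1.08-fold) and did not pass (limma adjusted p = 0.552).

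The largest change around Cd24a was in its lectin receptor. Siglecg, the inhibitory B cell receptor that binds CD24 in mice, had 10.48, 10.73 and 10.65 in the knockout samples and 8.60, 8.72 and 8.68 in the wild-type samples. All knockout samples lay far above all wild-type samples, a rise of 3.86-fold (log2 1.95 ± 0.079, SE, limma adjusted p = 0.00019). Of 9 CD24 ligands and GPI-anchored partners, 3 rose, 1 fell and 5 did not pass, beside 4.43% of all genes called. This list, too, was assembled with earlier results known. Bst1, a GPI-anchored ectoenzyme, and Cd52, a small glycoprotein built like CD24 and the brightest of the list, rose by 0.81 and 0.46 (adjusted p = 0.00107 and 0.0339). Prnp, the prion protein gene, differed by -0.49 (adjusted p = 0.0101). Cd52 kept its call only without knockout sample 1 among the 6 refits with a sample removed (adjusted p up to 0.148), and Prnp lost it without knockout sample 3 or wild-type sample 1 or 2 (up to 0.0565).

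Over the 13 partner lists together, 25 of 214 distinct genes were called, 15 higher and 10 lower, which is 11.7% beside 4.43% of all genes. The lists were assembled with earlier results known, so this share says nothing particular about adhesion. The median difference of a list ran from -0.12 for the integrins to 0.18 for the CD24 ligands and partners, against -0.0039 for all genes. Of the 25, 10 kept their call in every alternative tried: Fat4, Siglecg, Bst1, Ank3, B4galt1, Cemip2, Lta, Tnfaip3, Inppl1 and Zeb2.

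**Figure D4:**
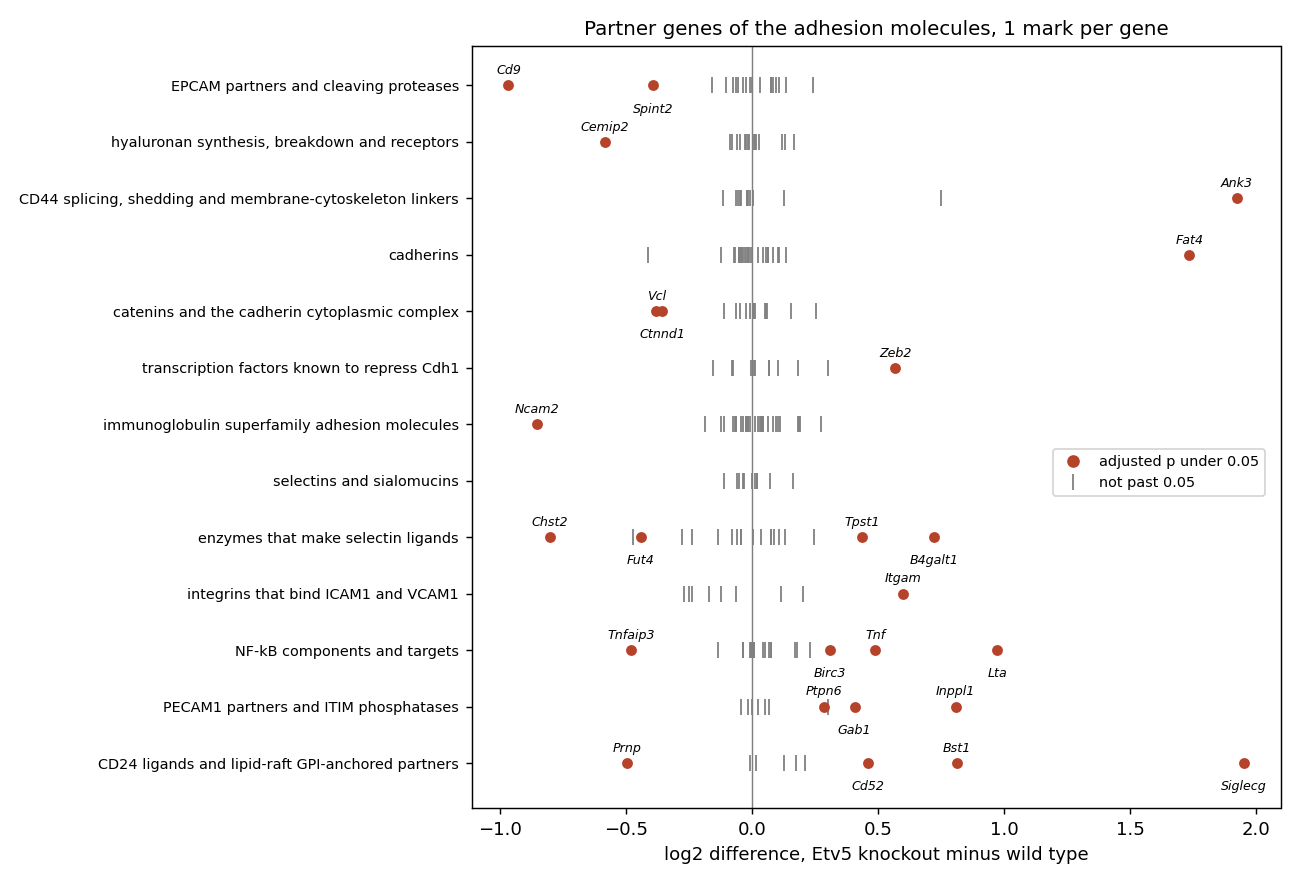
Log2 difference, Etv5 knockout minus wild type, of every measured gene in 13 lists of partners of the adhesion molecules; 1 mark per gene, red where the adjusted p was under 0.05. Siglecg (1.95), Ank3 (1.92) and Fat4 (1.73) lie furthest to the right and Cd9 (-0.96) furthest to the left, while most genes lie close to 0.

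The genes with profiles most like the 3 called adhesion genes were found by the Euclidean distance over the 6 arrays between log2 profiles centred on their own mean. Nearest to Epcam were Ccdc38, Glp1r and Stag3, at distances of 0.27, 0.29 and 0.34. Their differences were -2.78, -2.96 and -2.93. The knockout means of Ccdc38 (5.90) and Glp1r (7.20) lay below the background guide, so the sizes of these differences, and the order of the knockout samples that enters the distance, are uncertain. Nearest to Cd44 were the syndecan gene Sdc4, another matrix-binding surface molecule, the stress-induced mTOR inhibitor gene Ddit4 and the peptide-amidating enzyme gene Pam, at 0.11, 0.13 and 0.13, with differences of 0.84, 0.87 and 0.86. Nearest to Pecam1 were the polysialyltransferase gene St8sia4, the BMP receptor gene Bmpr1a and the adenylyl cyclase gene Adcy3, at 0.050, 0.051 and 0.059, with differences of 0.48, 0.44 and 0.43. A small distance means mainly a genotype difference of the same size.

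**Figure D5:**
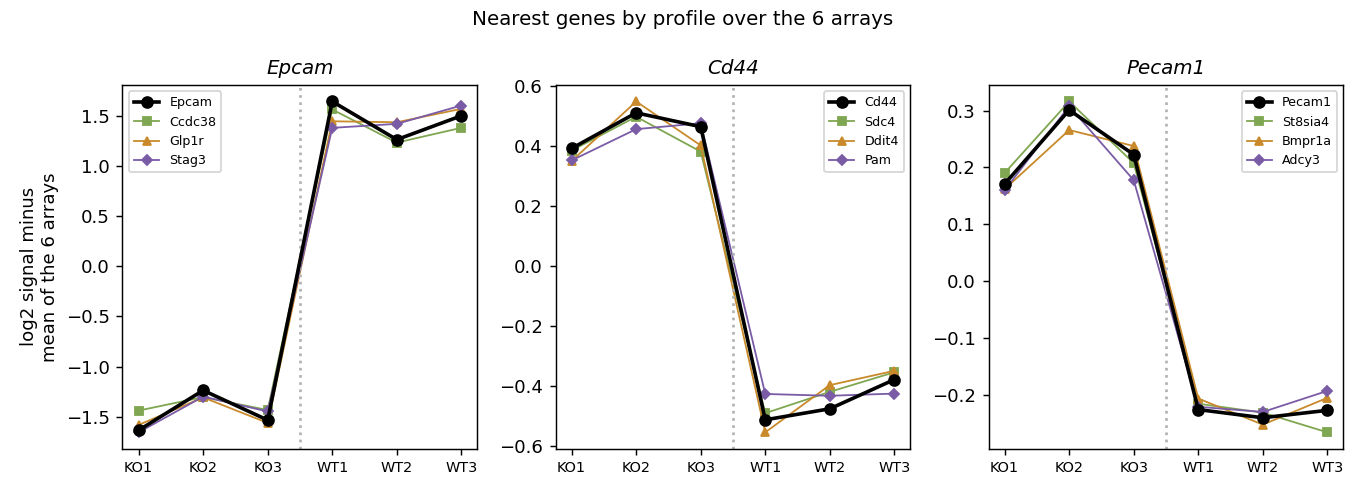
Log2 signal minus the mean of the 6 arrays for Epcam, Cd44 and Pecam1 (black) and the 3 genes nearest to each (colours), with the Etv5 knockout samples left of the dotted line and the wild-type samples right of it; the y axes differ. In each panel the 4 lines step between the genotypes by about the same amount, down in the knockout for Epcam and up for Cd44 and Pecam1.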

How the data were processed

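Biotin-labelled total RNA was read on Affymetrix arrays of 1 colour, as the labels' protocols state. Log2 values were deposited for 35556 probe sets in 6 columns. They were made with RMA and Partek 6.5, per the submitters' processing notes; the scale was read from the values. RMA compresses differences of dim probe sets, and the number of arrays limits the precision. No detection calls were used. No column was left unused.

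Probe sets were named through the platform's annotation: 21789 had 1 gene symbol, 1621 several and 12146 none. Of the genes, 19856 matched RefSeq (GRCm38.p6) by identifier and 0 symbols changed. Genotypes come from the sample titles. The fit was limma 3.58.1 in R 4.3.3 (lmFit, eBayes, no covariate), adjusted over all probe sets at 0.05. It was tested on simulated data with independent normal errors, which cannot show whether the spread among the samples is technical. An exact permutation test of 3 against 3 cannot go below p = 0.10, so none was run. The 8 genes and the lists were chosen with earlier results of these data known; the use of olfactory receptor genes as a guide to background was chosen after seeing the data. Named were the 8 genes, Etv5, in each list the called genes and the one with the brightest probe set, and for Epcam, Cd44 and Pecam1 the 3 nearest profiles, leaving out predicted, olfactory, vomeronasal, small RNA and immunoglobulin genes. Tried as alternatives were a replicate block, array weights, a robust fit with a trended variance, cyclic loess, quantile and median normalization, single-gene probe sets alone, removal of the dimmest 40% of probe sets or of each sample, averaging of a gene's probe sets, and thresholds of 0.01 and 0.10.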

Additional observations from a re-analysis of the deposited data

How the results depend on the processing

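Epcam and Cd44 kept their direction and call in all 15 alternative fits, with differences of -3.05 to -2.85 and 0.88 to 0.95; Pecam1 (0.43 to 0.49) kept its direction and lost its call in 2. The members called lower numbered 1 throughout. Those called higher numbered 2, and 1 with the sample number as a replicate block, in which the adjusted p-values were 0.0087 for Epcam, 0.0138 for Cd44 and 0.0639 for Pecam1; with 1 sample left out they numbered 1 to 2. Icam1, Selplg and Cd24a kept a positive difference and no call in every fit. The near-zero differences changed sign, without a call: Cdh1 was at -0.023 with array weights, at -0.011 without knockout sample 1 and at -0.049 without wild-type sample 3 (-0.049 to 0.063 with 1 sample left out), and Vcam1 at -0.016 without knockout sample 1 and at -0.0092 without wild-type sample 3 (-0.016 to 0.14). Neither had a value when the dimmest probe sets were left out. Over the table, 580 probe sets were called higher and 515 lower. These became 292 and 252 with the replicate block, 290 and 248 at a threshold of 0.01, and 299 to 510 and 266 to 392 with 1 sample left out, the lowest without wild-type sample 1. Of 646 recounts of called genes in the lists, 522 stayed within 1.5 times the reported count and 124 did not. The 522 include counts of 0 that stayed at 0, as for the epithelial and stromal markers, so they overstate how stable the counts of called genes were. Samples of the same number did not deviate together: the correlations of their deviations from the group means were -0.12, 0.02 and 0.26 for numbers 1, 2 and 3, and 2 of the 6 samples correlated best with their own number, so the samples were not treated as paired. The causes of these shifts were not tested; fits without 1 sample have fewer samples. Signals near background limit what Cdh1, Vcam1 and the knockout values of Epcam can show.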
